A study of Mus musculus with 2 samples.

Results

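The cells described here are the fibroblasts of injured mouse carotid arteries that carry mostly matrix genes such as Sfrp2 and Comp, and they are called matrix-type cells below. They were chosen by their own counts. A cell was kept when it had 300 or more genes and no more than 15% mitochondrial counts, and it was gated as a fibroblast when at least 3 of the 6 genes Col1a1, Col1a2, Col3a1, Dcn, Pdgfra and Lum were detected and no count came from Ptprc, Pecam1 or Myh11. Each fibroblast was then scored by the number of genes detected in 3 panels of 6 genes. A matrix-type cell had at least 2 of Sfrp2, Ccn5, Comp, Smoc2, Mfap4 and Fbln1 (the matrix panel), and more of these than of either other panel. The rule found 558 matrix-type cells among 2271 gated fibroblasts and 14451 kept cells. Of them, 290 came from the EC-Cx43-KO library and 268 from the control library.

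Carotid arteries were taken 18 hours after a temporary ligation injury. The EC-Cx43-KO mice carried Cdh5 Cre and Cx43fl/fl, so that the connexin 43 gene Gja1 is floxed and Cre is driven by an endothelial promoter and is inducible. The control mice were Cx43fl/fl without Cre, so both groups carried the floxed alleles. The arteries of each genotype were combined into 1 library, after a digest of 20 minutes meant to enrich endothelium, red cell lysis and freezing. The number of animals, their age and their sex are not in the labels. Cre was not directed at fibroblasts, and a short digest can set which fibroblasts are released. With 1 library per group, no difference between the groups has a replicate check and no test was made. The intervals given are at 95% and cover counting error only.

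As background, fibroblasts of the outer arterial wall secrete the collagens, elastic fibre proteins and small leucine-rich proteoglycans that carry load, and several states of them coexist, some rich in cytokines and some in matrix products. Sfrp2 is a secreted modulator of Wnt signals. Comp, a thrombospondin family protein first known from cartilage, and Fbln1 and Mfap4 bind collagen or elastic fibres, Smoc2 is a secreted calcium-binding matrix protein, and Ccn5 is a matricellular protein. After injury, fibroblasts also respond to interferons, and many of the genes induced by these hold a DNA element with repeated GAAA in their promoters.

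Messenger RNA was counted from its 3′ ends as unique molecular identifiers (UMIs). The EC-Cx43-KO library held 8315 barcodes and 54392831 UMIs, and the control library 7298 barcodes and 48862850 UMIs. Matrix-type cells had a median of 4347.5 UMIs and 1880 genes in the EC-Cx43-KO library, against 5054.5 UMIs and 2073 genes in the control library. Their summed depth was 1853693 UMIs in EC-Cx43-KO and 1814175 UMIs in control, and levels are given as CPM, the UMIs of a gene per 1000000 UMIs of these sums. The libraries shared 17 barcodes, of which 1 was a matrix-type cell in EC-Cx43-KO and 0 in control.

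Matrix-type cells made up 23.4% of the gated fibroblasts in EC-Cx43-KO (290 of 1240; exact binomial interval 21.1 to 25.8%), against 26.0% in control (268 of 1031; 23.3 to 28.8%). The log2 ratio of these shares was -0.15, with a Katz interval from -0.36 to 0.055. The shares therefore did not differ beyond counting error. Of all kept cells, they were 3.76% in EC-Cx43-KO and 3.98% in control. The remaining fibroblasts fell to the panel of Sfrp4, Cpxm1, Mmp3, Ccl19, Ptx3 and Il33 (541 EC-Cx43-KO and 429 control cells), to the panel of Tnfrsf11b, Esm1, Inhba, Wnt2, Tnc and Tll1 (95 and 73 cells), or to none (314 and 261 cells). Cells of the Sfrp4 panel had a median of 8082 UMIs in EC-Cx43-KO and 7660 UMIs in control. The medians were 8154 and 12430 UMIs for the Inhba panel, and 5315.5 and 4357 UMIs for no panel. The part of depth in these classes was not tested.

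The values that chose the cells show how firmly each marker defines them. Fbln1 was detected in 94.8% of EC-Cx43-KO and 93.3% of control matrix-type cells, and Smoc2 in 87.6% and 89.6%. Mfap4 was detected in 67.6% of EC-Cx43-KO and 74.3% of control cells, Sfrp2 in 60.7% and 63.1%, and Ccn5 in 147 of 290 and 134 of 268 cells. Comp, the most restricted marker, was detected in 31.7% of EC-Cx43-KO and 29.1% of control cells, so most matrix-type cells had no Comp count. In leukocytes, which should lack these genes, Comp was detected in 0.691% of 3186 EC-Cx43-KO cells and 0.444% of 2930 control cells, and Smoc2 in 1.66% and 1.26%. The median depth of leukocytes was 4550 UMIs in EC-Cx43-KO and 4470.5 UMIs in control.

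Serpinf1, which encodes the secreted anti-angiogenic protein PEDF, is a marker of these cells that the rule did not use. It was detected in 82.8% of EC-Cx43-KO and 84.3% of control matrix-type cells, and in 1.48% and 1.19% of leukocytes. It was also detected in 58.3% of EC-Cx43-KO and 54.4% of control fibroblasts of no panel, so it separated the classes by level more than by presence.

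**Figure D1:**
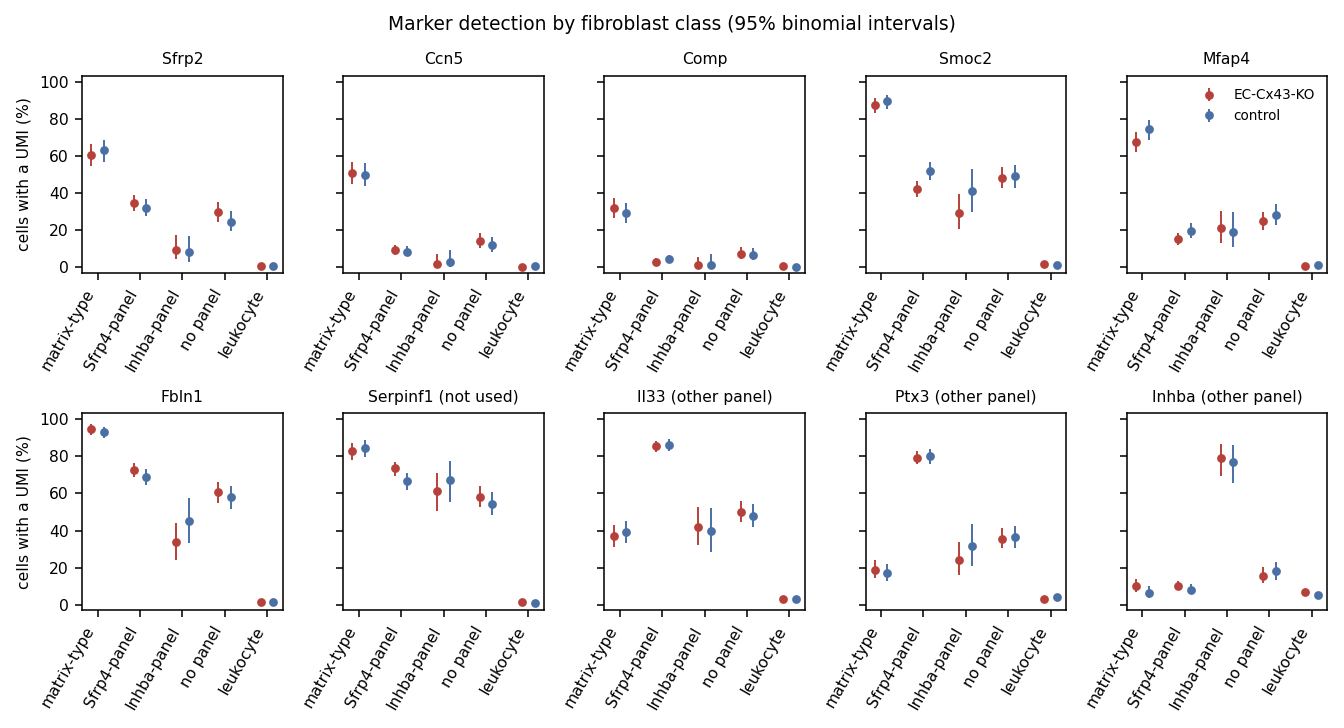
Percent of cells with at least 1 UMI of each gene (vertical axis) in matrix-type cells, the other fibroblast classes and leukocytes; red points are EC-Cx43-KO, blue points control, and bars are 95% exact binomial intervals. Comp was detected in 31.7% of EC-Cx43-KO and 29.1% of control matrix-type cells and in under 1% of leukocytes, whereas Fbln1 was detected in most fibroblasts of every class but the Inhba panel.

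Many cells sat close to the threshold. Just inside it, 44 EC-Cx43-KO and 35 control cells had only 2 genes of the matrix panel, and 119 and 109 cells led by a single gene over the nearest other panel. At the other end, 27 cells in each library had all 6. Just outside, 165 EC-Cx43-KO and 126 control cells were tied with another panel. Comp was at 44.4 CPM in tied EC-Cx43-KO cells and 30.9 CPM in tied control cells, at 150 and 101 CPM in cells leading by 1 gene, and at 234 and 272 CPM in cells leading by 2 or more. Comp is a gene of the panel, so a larger lead itself selects cells with Comp counts.

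The matrix panel genes had these levels against the other gated fibroblasts, as a description of the choice. Comp (ENSMUSG00000031849; GRCm38 chromosome 8, 70373558 to 70382066) was at 191.5 CPM in matrix-type cells against 10.7 CPM in other fibroblasts of the EC-Cx43-KO library, and at 186 against 12.4 CPM in the control library, log2 ratios of 4.16 and 3.91. Ccn5 (chromosome 2, 163820861 to 163833146) had log2 ratios of 3.04 in EC-Cx43-KO and 3.03 in control, and Mfap4 (chromosome 11, 61485431 to 61488900) of 2.88 and 2.89. Smoc2 (chromosome 17, 14279506 to 14404790) had ratios of 2.06 in EC-Cx43-KO and 2.01 in control. Sfrp2 (chromosome 3, 83766321 to 83774316) had 1.78 and 2.18, and Fbln1 (chromosome 15, 85205949 to 85286535) 1.47 and 1.77. Serpinf1 (chromosome 11, 75409769 to 75422701), outside the rule, was at 684 CPM in matrix-type cells against 271 CPM in other fibroblasts of EC-Cx43-KO, and at 820 against 299 CPM in control, log2 ratios of 1.34 and 1.45.

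Beyond the panel, the genes highest in matrix-type cells included Eln, Fmod and Cilp, products of elastic tissue and cartilage, and the ligands Bmp4 and Ntf3. Over 11846 genes with at least 20 UMIs, 814 (6.87%) were at least 1.5-fold higher (a log2 ratio of at least 0.58) in matrix-type cells than in other fibroblasts of both libraries, and 971 (8.2%) were lower in both. Genes detected in the same cells as the panel enter these counts, so they describe the chosen cells and support nothing about them. The genes named next are among the 15 highest and 10 lowest by the interval end nearest to 0.

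Among secreted and matrix genes, Eln, the elastin precursor, was at 1089 CPM in matrix-type cells against 205 CPM in other fibroblasts of EC-Cx43-KO, and at 1255 against 229 CPM in control. Fmod, the collagen-binding proteoglycan fibromodulin, was at 84.7 against 6.60 CPM in EC-Cx43-KO and at 75.5 against 11.1 CPM in control. Cilp, a cartilage intermediate layer protein, was at 43.7 against 4.30 CPM in EC-Cx43-KO and at 70.0 against 7.13 CPM in control. All 3 were higher in matrix-type cells of both libraries, by log2 ratios between 2.41 and 3.68. Adamtsl2, a secreted protein that binds fibrillin and latent TGF-β complexes, had log2 ratios of 3.43 in EC-Cx43-KO and 3.89 in control. Lamc3, a laminin chain, had 2.59 and 3.11, and Smoc1, the paralogue of Smoc2, had 2.73 and 2.41. Timp3, a matrix-bound inhibitor of metalloproteinases, was at 2225 CPM in matrix-type cells against 485 CPM in other fibroblasts of EC-Cx43-KO, and at 2201 against 330 CPM in control.

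Ligands among the higher genes were Bmp4, at 66.4 CPM in matrix-type cells against 11.2 CPM in other fibroblasts of EC-Cx43-KO and at 97.0 against 14.3 CPM in control, and the neurotrophin Ntf3, at 90.1 against 6.60 CPM and at 64.5 against 9.26 CPM. Metabolic and membrane genes completed the higher set. The flavin monooxygenase Fmo2 had log2 ratios of 2.34 in EC-Cx43-KO and 2.80 in control. Kcnab1, a potassium channel subunit, had 3.23 and 3.27, the neural adhesion protein gene Cntn6 had 3.10 and 3.24, the secreted protein gene Ccdc3 had 3.02 and 2.77, and Ndufa4l2, which is related to a respiratory chain subunit, had 2.91 and 2.62.

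The lower genes included enzymes of glycosaminoglycan synthesis and chemokines. Csgalnact1, which starts chondroitin sulfate chains, was at 35.6 CPM in matrix-type cells against 155 CPM in other fibroblasts of EC-Cx43-KO, and at 48.5 against 172 CPM in control. Ugdh, which makes the UDP-glucuronate that hyaluronan and chondroitin need, was at 747 against 1854 CPM and at 690 against 1930 CPM. The eosinophil chemokine gene Ccl11 had log2 ratios of -1.99 in EC-Cx43-KO and -2.53 in control. Procr, the protein C receptor, had -1.43 and -2.55, the retinol dehydrogenase gene Rdh10 had -1.71 and -1.65, and the adhesion gene Sdk1 had -2.04 and -2.25. The transcription factor gene Ebf2 had -1.63 and -1.94, Fndc1 had -1.38 and -1.66, and the neural adhesion gene Opcml had -1.36 and -1.95. Some of these levels came mostly from the subclusters described below that are low in the matrix panel. Csgalnact1 was at 138 CPM in subcluster 3, against at most 4.97 CPM in the others. In subcluster 6 Sdk1 was at 726 CPM and Fndc1 at 400 CPM, against at most 54.6 and 81.9 CPM in the others.

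**Figure D2:**
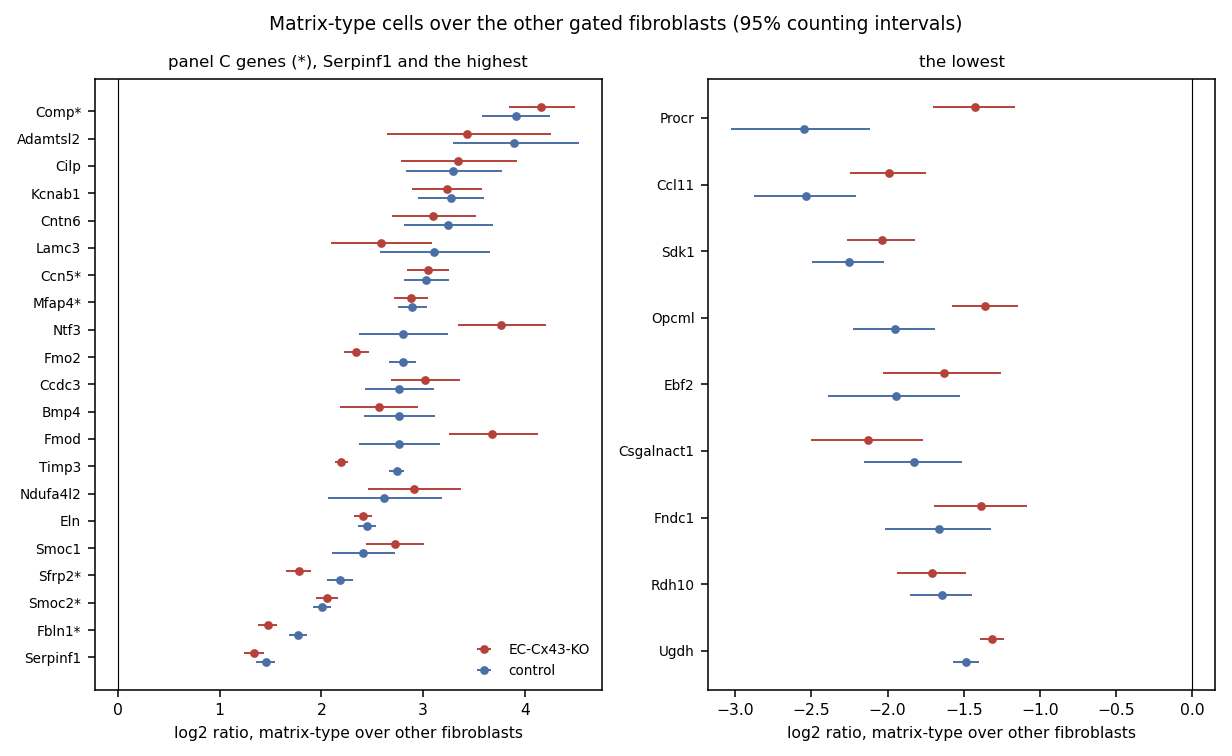
Log2 ratio of matrix-type cells over the other gated fibroblasts (horizontal axis) for the matrix panel genes (starred), Serpinf1 and genes among the 15 highest and 10 lowest; red points are EC-Cx43-KO, blue points control, and bars are 95% counting intervals. Each gene lies on the same side of 0 in both libraries, and Comp (4.16 in EC-Cx43-KO and 3.91 in control) lies farther right than Kcnab1 (3.23 and 3.27).

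Gene lists gave the same cells a profile by function. Of 13 proteoglycan genes, 9 were at least 1.5-fold higher and 1 lower in matrix-type cells of both libraries, with a median log2 ratio of 0.97 in EC-Cx43-KO and 1.16 in control, beside -0.06 and -0.08 over all genes. Over all 11846 genes, 6.87% were higher and 8.2% lower in both libraries. The exception was Vcan (versican), at 282 CPM in matrix-type cells against 488 CPM in other fibroblasts of EC-Cx43-KO and at 246 against 513 CPM in control. Of 16 elastic fibre genes, 7 were higher and 2 lower, and without Fbln1 and Mfap4, which are genes of the rule, 5 of 14 were higher. The lower ones were Efemp1 and Emilin2, while Fbln5, which assembles elastin, was higher with log2 ratios of 1.51 and 1.95. Fibrillar collagens were divided. Col1a1 was at 2278 CPM in matrix-type cells against 1595 CPM in other fibroblasts of EC-Cx43-KO and at 3185 against 1810 CPM in control. Col3a1 was at 3384 against 4950 CPM in EC-Cx43-KO and at 4336 against 5144 CPM in control. Only 1 of the 6 fibrillar collagen genes, Col1a2, passed 1.5-fold in both libraries.

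Cytokine and cell cycle genes were the lists with the lowest medians among those named here. Of 22 cytokine genes, 14 were lower and 0 higher in matrix-type cells of both libraries, with medians of -1.11 in EC-Cx43-KO and -1.21 in control. The shares over all 11846 genes were 8.2% lower and 6.87% higher. Ccl19, Ptx3 and Il33 are genes of the rule, and without them 12 of 19 were lower and 0 higher. Ccl2, the monocyte chemokine, was at 362 CPM in matrix-type cells against 1028 CPM in other fibroblasts of EC-Cx43-KO and at 153 against 1053 CPM in control. Of 22 cell cycle genes, 19 were lower and 0 higher, with medians of -1.01 and -1.76. Only 10 of the 22 had at least 20 UMIs over the matrix-type cells of both libraries, so the ratios of the others rest on few counts there. Wnt genes went both ways, with 6 of 22 higher and 6 lower, or 5 of 19 higher and 4 lower without Sfrp2, Sfrp4 and Wnt2, which are genes of the rule. Growth factor genes went both ways too, with 7 of 26 higher and 9 lower. Dkk3, Frzb and Wnt5a were among the higher ones, with log2 ratios between 1.33 and 2.20, and Sfrp4, a gene of the rule, was lower at -1.36 and -1.43. Insulin-like growth factor 1 (Igf1) was at 650.1 CPM in matrix-type cells against 242 CPM in other fibroblasts of EC-Cx43-KO and at 629 against 247 CPM in control, and Gas6, the ligand of the Axl receptor family, was at 789 against 180 CPM and at 1169 against 210 CPM.

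Gja1 (chromosome 10, 56377330 to 56402513) is the gene that Cre targets in the endothelium of the EC-Cx43-KO mice. It was at 145 CPM in EC-Cx43-KO matrix-type cells and 141 CPM in control matrix-type cells, a log2 ratio of 0.04 with an interval from -0.21 to 0.29. It was at 281 CPM in EC-Cx43-KO and 295 CPM in control in the other fibroblasts. Gja1 was therefore lower in matrix-type cells than in other fibroblasts of both libraries (log2 ratios -0.95 and -1.06), and its level in these cells did not differ between libraries beyond counting error. Over the alternatives to the filters, the rule and the scaling, its ratio between libraries ran from -0.36 to 0.26. Fibroblast counts do not check the endothelial deletion, and where the floxed part lies relative to the counted 3′ end is not given in the sources used here.

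Markers of other cell types were low in matrix-type cells. Endothelial markers summed to 2.70 CPM in EC-Cx43-KO and 5.51 CPM in control, over 8 genes with Kdr at 0 in both. Of 6 lymphocyte markers 5 were at 0 in both libraries, as were all 5 mesothelial markers. Macrophage markers summed to 108 CPM in EC-Cx43-KO and 84.3 CPM in control, against 9760 and 7866 CPM in leukocytes. Smooth muscle and pericyte markers were the exception, since their sum was 316 CPM in EC-Cx43-KO and 261 CPM in control matrix-type cells, against 123 and 128 CPM in other fibroblasts. Acta2 (111 CPM in EC-Cx43-KO, 82.7 CPM in control) and Kcnj8 (88.5 and 93.2 CPM) carried most of it, and Des was at 0 in both libraries.

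Within themselves the matrix-type cells formed 8 subclusters, which were left without cell type names. Subclusters 1, 2 and 4, with 151, 142 and 68 cells over both libraries, held high levels of the matrix panel, at 4715, 4998 and 3659 CPM summed over its 6 genes. Subcluster 1 was led by the neural adhesion genes Lsamp and Cntn6, the channel subunit gene Kcnab1 and the nuclear receptor gene Esrrg. Subcluster 2 was shallow, at a median of 1949 UMIs per cell, and was led by Txnip, Gsn, Fmo2 and Cst3. Subcluster 4 was led by S100a4, Eln, Egr2 and Eda2r, and its Eln level was 2255 CPM. Subcluster 7 (24 cells) had 5061 CPM of the panel and was led by Cpxm1, Lcn2, Steap4 and Ccl19.

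In 2 subclusters the data went against the label. Subcluster 3 (87 cells, median 11383 UMIs) had 1074 CPM of the matrix panel and was led by Cxcl5, Csgalnact1, Baiap2l1 and Adam12, and subcluster 6 (29 cells, median 8925 UMIs) had 1010 CPM and was led by Cadm3, Hpgd, Fndc1 and Sdk1. Comp was at 46.7 CPM in subcluster 3 and at 0 CPM in subcluster 6, against 310 CPM in each of subclusters 1 and 2. Subcluster 6 carried Pi16, a marker of adventitial progenitor-like fibroblasts, at 3519 CPM, against 391 to 1310.5 CPM in the others, and Dpp4 at 92.1 CPM, against at most 0.934 CPM in the others. Gja1 was at 209 CPM in subcluster 3 and 276 CPM in subcluster 6, against 65.9 to 119 CPM in the other 6. Both were deep, and a deep cell can pass a rule on detected genes at a lower level of each; the part of depth in their selection was not tested. Over both libraries, subcluster 3 held 1070508 UMIs and subcluster 6 held 282219 UMIs. The summed depth of all matrix-type cells was 1853693 UMIs in EC-Cx43-KO and 1814175 UMIs in control. The matrix-type levels given above include these cells. Without them, 1189 genes were at least 1.5-fold higher than in other fibroblasts of both libraries, against 814 with them. That exclusion was added once values were known, and its share of all genes is not given. Several results between the groups rest on these cells, and their values without them are given below.

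The other subclusters were small. Subcluster 5 held 35 EC-Cx43-KO and 4 control cells and was led by the interferon-response genes Rsad2, Ifit3, Ifit3b and Ifi44, with interferon genes summing to 14699 CPM, against 957 to 2859 CPM in the others, and the 39 cells stayed together at a lower and a higher clustering resolution. Its matrix panel level was 3412 CPM and its Comp level 269 CPM, so these cells carried the panel. Subcluster 8 (18 cells) was led by Fabp5, Wfdc17, Spp1 and Arg1, and macrophage markers reached 2198 CPM in it, against at most 69.6 CPM in the others. Without subcluster 8 (also an exclusion added once values were known), 22 of the 29 interferon genes described below were at least 1.5-fold higher in EC-Cx43-KO and 0 lower. Their median log2 ratio was 0.91, beside 7.32% of all 10007 genes higher.

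**Figure D3:**
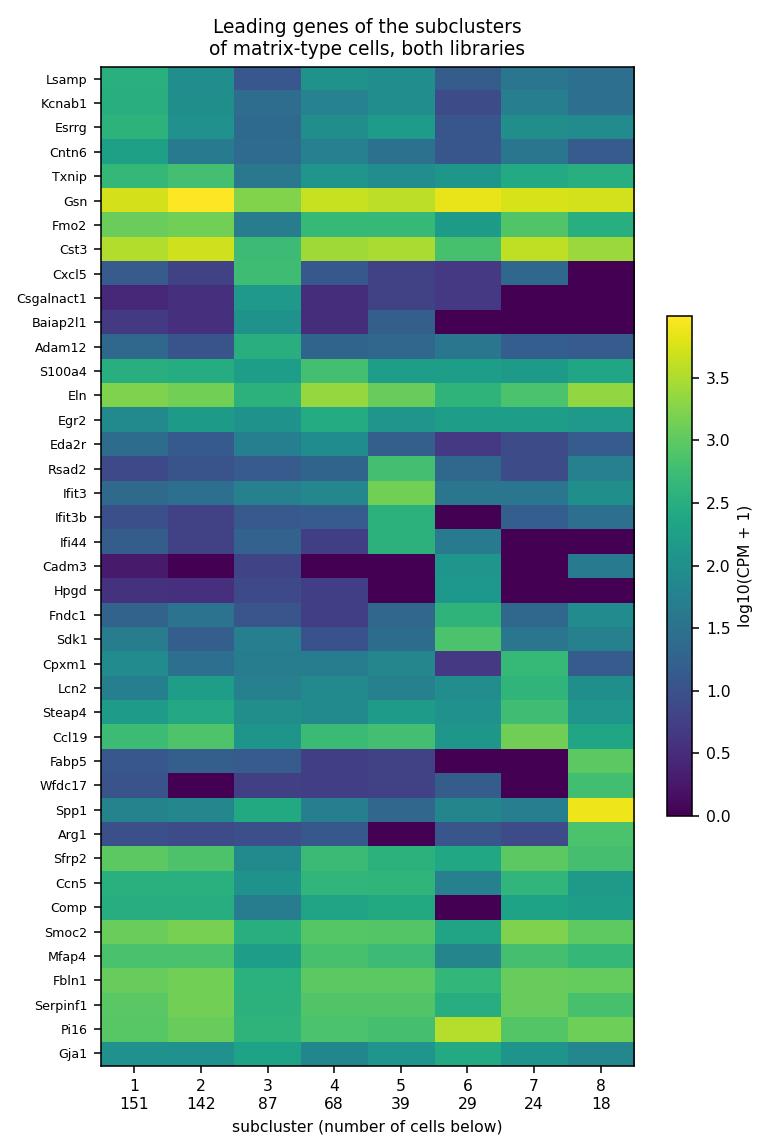
Level of the leading genes of each subcluster, the matrix markers, Pi16 and Gja1 (rows) in the 8 subclusters of matrix-type cells over both libraries (columns, with the number of cells), as log10 of CPM plus 1 on a colour scale. The matrix markers are low in subclusters 3 and 6, Rsad2 and the other interferon genes are high in subcluster 5 (39 cells), and Spp1 and Arg1 are high in subcluster 8 (18 cells).

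The comparison between groups set the matrix-type cells of the EC-Cx43-KO library against those of the control library. Whether the endothelial cells of the EC-Cx43-KO mice lacked connexin 43 was not checked here. Over 10062 genes with at least 20 UMIs, 737 (7.32%) were at least 1.5-fold higher in EC-Cx43-KO matrix-type cells and 845 (8.4%) at least 1.5-fold lower, with a median log2 ratio of -0.03. In the other fibroblasts, 780 of 13131 genes (5.94%) were higher in EC-Cx43-KO and 860 (6.55%) lower. These shares are the background for each list that follows.

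Interferon-response genes were higher in EC-Cx43-KO as a group, in large part through the cells of subcluster 5. Of 34 genes listed, 32 were in the files and 29 had at least 20 UMIs, and 25 of these 29 were at least 1.5-fold higher in EC-Cx43-KO and 0 lower. Their median log2 ratio was 0.93, beside -0.03 over all genes. In the other fibroblasts, 28 of 32 were higher with a median of 1.05, and whether the classes differ in this was not tested. Subcluster 5, which these genes define, held 52.1% of the interferon UMIs in EC-Cx43-KO (35 cells) and 6.53% in control (4 cells). Without it (an exclusion added once values were known), 9 of 28 measured members were called higher and 0 lower, with a median of 0.44, beside 7.41% of all 9977 genes higher and 8.26% lower. The list then summed to 1560 CPM in EC-Cx43-KO and 1049 CPM in control. Free RNA was at a median of 2.42% of the library profile in EC-Cx43-KO and 3.07% in control, and with it subtracted 25 of 29 were still called higher.

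Promoter stretches of some of these genes are shown because they carry the letters of the element that interferon signals are known to use. The letters GAAANNGAAA, searched on both strands (on the other strand they read as TTTC, 2 bases, TTTC), occurred in 12 of the 21 interferon genes with a RefSeq promoter (57.1%; GRCm38.p6, 250 bases before to 50 after the start, 300 in all), against 3.93% of the 7993 genes measured in matrix-type cells that have one and 3.44% of all 32851 promoters. A match describes the sequence and shows no binding here. Ifi44, Irf7 and Irf9 were among the genes without a match, and Stat2, which has one, was level between the libraries. Capitals mark the matched letters, overlapping matches joined, in windows of 30 bases read 5′ to 3′ on the gene's strand.
Isg15, chr4:156200871-156200900, minus strand: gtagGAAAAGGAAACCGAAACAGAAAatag
Rsad2, chr12:26456553-26456582, minus strand: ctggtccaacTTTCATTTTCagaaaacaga
Bst2, chr8:71537580-71537609, minus strand: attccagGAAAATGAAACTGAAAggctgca
Ifit1, chr19:34640775-34640804, plus strand: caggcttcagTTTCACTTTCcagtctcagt
Ifit1, chr19:34640794-34640823, plus strand: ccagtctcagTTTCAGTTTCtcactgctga
Ifit3, chr19:34583363-34583392, plus strand: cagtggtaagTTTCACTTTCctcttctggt
Ifit3b, chr19:34607759-34607788, plus strand: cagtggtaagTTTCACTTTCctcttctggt
Stat2, chr10:128270266-128270295, plus strand: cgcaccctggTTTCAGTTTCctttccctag

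The windows of Ifit3 and Ifit3b are identical, as these genes are close copies, and the counting could divide reads between them, so their separate levels are uncertain.

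Among effectors, Isg15, a ubiquitin-like protein conjugated to other proteins in the antiviral response, was at 292 CPM in EC-Cx43-KO and 74.4 CPM in control, a log2 ratio of 1.97 (1.70 to 2.25). Rsad2 (viperin), an antiviral radical enzyme, was at 79.3 CPM in EC-Cx43-KO and 13.2 CPM in control (2.58). Ifit3, whose product acts with Ifit1 on foreign RNA, was at 190.4 CPM in EC-Cx43-KO and 41.3 CPM in control (2.20), and was detected in 73 and 31 cells. Ifit3b and Ifi44 were higher by 2.60 and 2.50, and Bst2 (tetherin), which holds budding viruses at the cell surface, by 1.34. Ifi27l2a had the highest log2 ratio of the list, 3.01, at 492 CPM in EC-Cx43-KO and 61.2 CPM in control. All of these effectors were higher in EC-Cx43-KO beyond counting error. Of their EC-Cx43-KO UMIs, subcluster 5 held from 52.7% (Bst2) to 81.6% (Rsad2). Without that subcluster Ifi27l2a had 2.00, Ifit3b 1.18, Isg15 1.01, Ifi44 0.90, Ifit3 0.86 and Rsad2 0.78, while Bst2, at 0.41, was under 1.5-fold.

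Signalling genes of the response ranged from level to higher. Irf7, a factor that amplifies interferon production, was at 55.6 CPM in EC-Cx43-KO and 16.0 CPM in control (1.80, and 0.58 without subcluster 5). Irf9, a transcription factor of the interferon response, had a log2 ratio of 0.65 (0.42 with the rule applied after thinning), while Stat2 was at 39.4 CPM in EC-Cx43-KO and 39.1 CPM in control (0.01, from -0.48 to 0.50). Usp18, which restrains interferon receptor signalling, had 1.06, and 0.50 without subcluster 5. Genes of MHC class I presentation, which interferons also induce, had a median of 0.34 with 4 of 15 called higher and 0 lower, and of 0.06 with 0 of 13 called in either direction without subcluster 5. Psmb8, an immunoproteasome subunit, was at 50.2 CPM in EC-Cx43-KO and 22.6 CPM in control (1.15, and 0.52 without subcluster 5), while B2m (0.32), H2-D1 (0.34) and H2-K1 (0.19) stayed under 1.5-fold.

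The signal was concentrated in some cells. After thinning each cell to 1000 UMIs, 80 of 270 EC-Cx43-KO cells (29.6%, 24.2 to 35.5%) and 30 of 243 control cells (12.3%, 8.49 to 17.2%) had at least 3 interferon UMIs, with 20 and 25 shallower cells left out. The highest cell had 26 interferon UMIs of 1000 in EC-Cx43-KO and 9 in control. The tenth of cells with most interferon UMIs (29 EC-Cx43-KO and 27 control cells) held 63.5% of all of them in EC-Cx43-KO and 51.3% in control.

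Cells with Xist UMIs and cells with UMIs of 4 Y-linked genes gave opposite answers. In each library both kinds were present: 84 EC-Cx43-KO and 92 control matrix-type cells had Xist and no Y-linked UMI, 109 and 92 had Y-linked and no Xist UMI, 3 and 4 had both, and 94 and 80 had neither. The median depth with Xist only was 5604.5 UMIs in EC-Cx43-KO and 7630 UMIs in control. With Y-linked UMIs only it was 6265 and 5927.5 UMIs. In cells with Xist only, the interferon genes summed to 5525 CPM in EC-Cx43-KO and 700.3 CPM in control. There 27 of 27 measured members were called higher, with a median of 2.56, beside 10.9% of all 7596 genes called higher and 13.4% lower. In cells with Y-linked UMIs only, they summed to 1166 CPM in EC-Cx43-KO and 1589 CPM in control. Of 25 measured members 1 was called higher and 13 lower there, with a median of -0.64, beside 10.3% of all 8048 genes higher and 13.2% lower. MHC class I genes had 11 of 13 members called higher and 0 lower with Xist only (median 0.89), and 0 of 12 higher and 1 lower with Y-linked UMIs only (median -0.17).

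Single genes showed the same opposite directions. Isg15 was at 560.1 CPM in EC-Cx43-KO and 27.1 CPM in control among cells with Xist only, and at 74.0 and 128 CPM among cells with Y-linked UMIs only. Rsad2 was at 210.3 CPM in EC-Cx43-KO and 3.70 CPM in control with Xist only, on 122 and 3 UMIs, and at 6.44 and 19.7 CPM with Y-linked UMIs only, on 6 and 14 UMIs. Stat2, level over all cells, had a log2 ratio of 1.38 with Xist only and of -1.47 with Y-linked UMIs only. Ifi27l2a was the member called higher in both, at 875 CPM in EC-Cx43-KO and 57.9 CPM in control with Xist only, and at 231 and 57.8 CPM with Y-linked UMIs only.

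The same split held for the shares of cells. With Xist only, 42 of 80 EC-Cx43-KO cells (52.5%) and 3 of 89 control cells (3.37%) had at least 3 interferon UMIs after thinning. With Y-linked UMIs only, 12 of 108 EC-Cx43-KO cells (11.1%) and 18 of 90 control cells (20.0%) did. As the libraries are pools and the labels give neither the sex nor the number of the animals, animal, sex and genotype cannot be told apart.

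Subcluster 5 was split along the same line. Of its 35 EC-Cx43-KO cells, 23 had Xist only and 0 had Y-linked UMIs only, and of its 4 control cells 0 had Xist only and 3 had Y-linked UMIs only. Its remaining cells had both or neither and fall in no split. Outside subcluster 5, the interferon genes summed to 2217 CPM in 61 EC-Cx43-KO cells and 700.3 CPM in 92 control cells with Xist only, and to 1166 CPM in 109 EC-Cx43-KO cells and 1441 CPM in 89 control cells with Y-linked UMIs only.

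**Figure D4:**
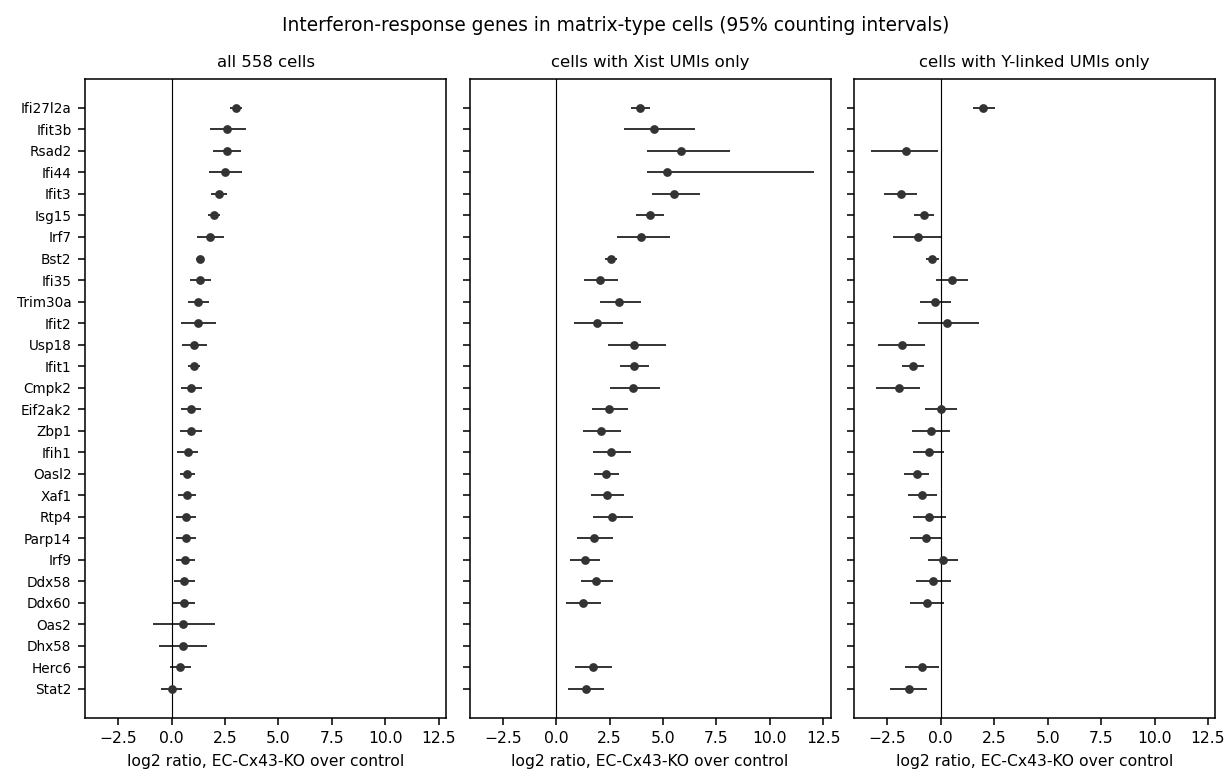
Log2 ratio of EC-Cx43-KO over control (horizontal axis) of interferon-response genes with at least 20 UMIs, in all 558 matrix-type cells, in cells with Xist UMIs only and in cells with Y-linked UMIs only; bars are 95% counting intervals, and a gene with under 20 UMIs in a split has no point there. In cells with Xist every point drawn lies above 0, while in cells with Y-linked UMIs 1 gene drawn is called higher, Ifi27l2a at 2.00.

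Outside the interferon list, the genes highest in EC-Cx43-KO were Inhba, Il31ra, Has2, Csmd1, Aqp1, Procr, Hbegf and Cxcl5, and several of them drew most of their counts from subcluster 3, which is low in the matrix panel. Inhba, the activin A subunit and a gene of another panel, was at 106 CPM in EC-Cx43-KO and 22.0 CPM in control (log2 ratio 2.27, 1.77 to 2.80), detected in 29 and 17 cells. Has2, a hyaluronan synthase, was at 45.9 CPM in EC-Cx43-KO and 10.5 CPM in control (2.13). Aqp1, a water channel, was at 49.6 CPM in EC-Cx43-KO and 15.4 CPM in control (1.69). Subcluster 3 held 74.1% of the Inhba UMIs in EC-Cx43-KO and 57.5% in control, 76.5% and 36.8% of the Has2 UMIs, and 83.7% and 60.7% of the Aqp1 UMIs. Without the cells of subclusters 3 and 6 (an exclusion added once values were known), the log2 ratio was 1.59 for Inhba, 0.0073 for Has2 and 0.45 for Aqp1.

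The remaining higher genes rested on few cells as well. Il31ra, a cytokine receptor subunit, was at 60.4 CPM in EC-Cx43-KO and 13.2 CPM in control (2.19), in 19 and 14 cells. Csmd1 was at 175 CPM in EC-Cx43-KO and 50.7 CPM in control (1.79), in 22 and 13 cells. Hbegf, an EGF receptor ligand, had a log2 ratio of 1.49 and Procr of 1.51. Subcluster 3 held 47.3% of the Hbegf UMIs in EC-Cx43-KO and 68.9% in control. Cxcl5, a neutrophil chemokine, was at 245 CPM in EC-Cx43-KO and 91.5 CPM in control (1.42), with 186 of 454 UMIs in 1 EC-Cx43-KO cell. Without subclusters 3 and 6 Procr was at 0.0073 and Cxcl5 at -2.87, while Hbegf was at 1.502, Il31ra at 2.28 and Csmd1 at 1.53. The Procr value, like that of Has2, is the one that equal UMIs in both libraries give. Where the rule was applied to cells thinned to 2000 UMIs (233 EC-Cx43-KO and 236 control cells), Inhba was at 0.31, Hbegf at 0.47, Csmd1 at -0.20, Has2 at -1.05 and Procr at -0.75, so their direction or size depends on how the cells are chosen. Il31ra was at 1.53 or above under every alternative that gave gene ratios, which the splits by Xist and Y-linked UMIs did not. In the other fibroblasts, Inhba, Hbegf and Cxcl5 had log2 ratios of -0.14, -0.15 and -0.47, and Il31ra, Has2 and Procr of 0.25, 0.37 and 0.39.

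Some inflammatory genes outside that ranking were higher as well, several of them through the same cells. Of 19 cytokine genes measured, 10 were called higher and 1 lower in EC-Cx43-KO, with a median of 0.62, while in the other fibroblasts 2 of 24 were called higher and 2 lower. Without subclusters 3 and 6, 4 of 17 were called higher and 5 lower, with a median of -0.04, beside 8.51% of all 8906 genes higher and 10.6% lower. In cells with Xist only the list had 6 of 17 called higher and 3 lower (median -0.05), and in cells with Y-linked UMIs only 9 of 17 higher and 2 lower (median 0.88). Ptx3, a pattern recognition protein and a gene of another panel, was at 289 CPM in EC-Cx43-KO and 125 CPM in control (1.21). Ccl2 was at 362 CPM in EC-Cx43-KO and 153 CPM in control (1.24, 1.04 to 1.45), and the neutrophil chemokine gene Cxcl2 at 131 and 59.0 CPM (1.15). Ccl7, another monocyte chemokine gene, had 0.97 and the macrophage growth factor gene Csf1 had 0.79. Il6 was at 426 CPM in EC-Cx43-KO and 425 CPM in control, and Cxcl1 (-0.05) and Cxcl12 (-0.31) were under 1.5-fold too. Subcluster 3 held 74.8% of the Ccl2 UMIs in EC-Cx43-KO and 61.5% in control, and without subclusters 3 and 6 the log2 ratio of Ccl2 was 0.52 and that of Cxcl2 0.39. With the rule applied after thinning, Ptx3 was at 0.0026, Csf1 at 0.31 and Cxcl2 at -0.31, and averaged over single cells Ccl7 was at 0.48. Over all alternatives that gave gene ratios, the lowest value was 0.27 for Ccl2 and 0.09 for Csf1. Cxcl10, an interferon-induced chemokine gene, was at 77.7 CPM in EC-Cx43-KO and 3.86 CPM in control, with 137 of 144 UMIs in 1 EC-Cx43-KO cell.

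**Figure D5:**
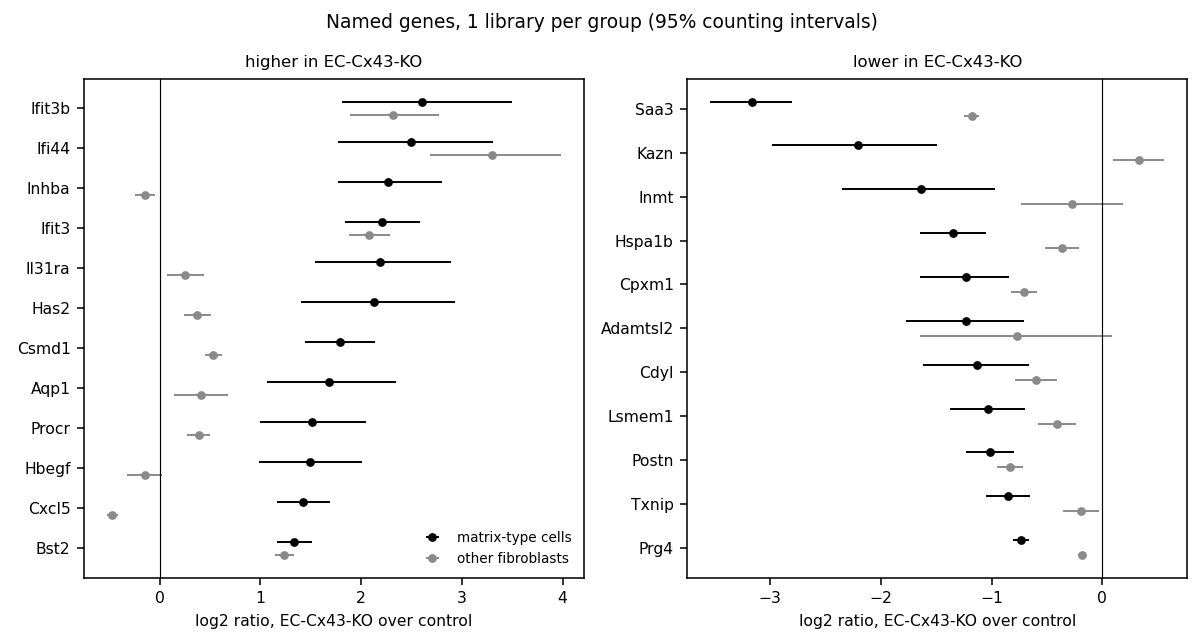
Log2 ratio of EC-Cx43-KO over control (horizontal axis) of genes among the 12 highest and 12 lowest in EC-Cx43-KO matrix-type cells, in matrix-type cells (black) and in the other gated fibroblasts (grey); bars are 95% counting intervals. Ifit3, Ifit3b, Ifi44 and Bst2 lie well to the right in both, whereas Inhba (2.27 against -0.14) and Hbegf lie to the right in matrix-type cells alone of the 2 classes. Inhba is a gene of the rule that made the classes, and subcluster 3 held 74.1% of its EC-Cx43-KO UMIs. With the rule applied after thinning, Inhba was at 0.31 and Hbegf at 0.47 in matrix-type cells.

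Lower genes in EC-Cx43-KO included an acute phase gene, matrix genes and metabolic genes. Saa3, an acute phase serum amyloid, was at 37.2 CPM in EC-Cx43-KO and 332 CPM in control (log2 ratio -3.16), with 217 of the 602 control UMIs in 1 cell, and it had -1.18 in the other fibroblasts. Postn, the matricellular protein periostin, was at 141 CPM in EC-Cx43-KO and 286 CPM in control (-1.01, -1.23 to -0.80), and it was lower in the other fibroblasts too (-0.83). Prg4, the lubricant proteoglycan of joints, was at 1358 CPM in EC-Cx43-KO and 2257 CPM in control (-0.73), with 541 and 1041 UMIs in the highest single cell. Subcluster 3 held 16.8% of the Prg4 UMIs in EC-Cx43-KO and 53.1% in control, and outside it Prg4 was at 1569 CPM in EC-Cx43-KO and 1521 CPM in control (0.05). It was at -0.33 without subclusters 3 and 6 and at 0.11 with Smoc2 left out of the panel. Adamtsl2 was at 23.7 CPM in EC-Cx43-KO and 55.7 CPM in control (-1.23), and Cpxm1, a carboxypeptidase-like protein gene of another panel, at 41.0 and 96.5 CPM (-1.23). Averaged over single cells instead of summed, Postn was at -0.33 and Prg4 at -0.42, and leaving out any 1 of 5 panel genes (Sfrp2, Ccn5, Smoc2, Mfap4 or Fbln1) put Cpxm1 between -0.40 and -0.14.

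Among the others, the methyltransferase gene Inmt was at 13.5 CPM in EC-Cx43-KO and 41.9 CPM in control (-1.64). Kazn, a cell junction protein gene, was at 10.8 CPM in EC-Cx43-KO and 49.6 CPM in control (-2.20), and had 0.33 in the other fibroblasts. Hspa1b, an inducible heat shock protein gene, had -1.34, Txnip, an inhibitor of thioredoxin, -0.85, Cdyl, a chromatin protein gene, -1.13, and Lsmem1 -1.03. With the rule applied after thinning, Cdyl was at -0.10 and Txnip at -0.42. Hspa1b was at -0.54, under 1.5-fold, in the alternative nearest to no difference. Saa3, Kazn, Inmt, Adamtsl2 and Lsmem1 stayed past 1.5-fold lower under each alternative that gave gene ratios. The splits by Xist and Y-linked UMIs were not among these alternatives. Immediate early and stress genes, which tissue digestion can induce, had a median of -0.27, with 1 of 24 called higher and 2 lower.

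Structural matrix genes were at most modestly lower. Col1a1 was at 2278 CPM in EC-Cx43-KO and 3185 CPM in control (log2 ratio -0.48, -0.54 to -0.43), Col3a1 at 3384 and 4336 CPM (-0.36), and Col1a2 had -0.29. These differences exceed counting error and fall short of 1.5-fold. Of 6 fibrillar collagen genes 1 was called higher (Col5a3) and 0 lower, with a median of -0.25. Lox, which crosslinks collagen and elastin, was at 468 CPM in EC-Cx43-KO and 703 CPM in control (-0.59, -0.71 to -0.46), and it was at -0.44 without subclusters 3 and 6. Of 18 collagen processing genes 0 were called higher and 2 lower.

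Proteoglycan and elastic fibre genes had medians near that of all genes. The proteoglycan list had a median of 0.01, with 0 of 13 called higher and 1 lower, and the elastic fibre list -0.08, with 0 of 16 called in either direction. Within them, Lum (lumican) was at 988 CPM in EC-Cx43-KO and 1360.4 CPM in control (-0.46), Bgn (biglycan) had -0.28, Dcn (decorin) -0.19 and Eln -0.21, while Mfap5, a microfibril protein, was at 1144 CPM in EC-Cx43-KO and 894 CPM in control (0.36). Of 17 matricellular genes 4 were called higher and 2 lower. Tnxb (tenascin X) had 0.54.

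The markers of the cells themselves were under 1.5-fold in each case, and as the rule chose the cells of both libraries by these genes, their levels are a description. Comp and Ccn5 had log2 ratios of 0.04 each. Sfrp2 was at 484 CPM in EC-Cx43-KO and 591 CPM in control (-0.29), Fbln1 at 718 and 1013 CPM (-0.50), Mfap4 at 393 and 569 CPM (-0.54), and Smoc2 at 688 and 1022 CPM (-0.57). Under single alternatives Sfrp2 reached -0.66, Smoc2 -0.61 and Mfap4 -0.60, just past 1.5-fold. Serpinf1, outside the rule, had -0.26. Fmod had 0.17 and Timp3 0.02, while Cilp was at 43.7 CPM in EC-Cx43-KO and 70.0 CPM in control (-0.68), and at -0.41 without the cell with most Cilp UMIs in each library. Of 5 tendon and cartilage genes measured, 0 were called higher and 3 lower (Prg4, Cilp and the transcription factor gene Sox9), with a median of -0.68 beside -0.73 in the other fibroblasts, and without subclusters 3 and 6 1 of 5 was lower, with a median of -0.19. Of 9 myofibroblast genes, 2 contractile ones were called higher and Postn lower, with a median of 0.30. Tagln was at 36.7 CPM in EC-Cx43-KO and 13.2 CPM in control (1.47), and Tpm2 at 48.6 and 16.5 CPM (1.55), while Acta2 (0.43), Cald1 (0.30), Tpm1 (0.17) and Myl9 (0.05) were under 1.5-fold.

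Growth factor signalling genes differed singly. Of 25 TGF-β and BMP genes, 5 were called higher and 1 lower, with a median of 0.04. The BMP target Id1 was at 43.2 CPM in EC-Cx43-KO and 16.0 CPM in control (1.43), and the inhibitory gene Smad7 at 111 and 73.3 CPM (0.59, and 0.40 averaged over single cells). Id1 was at 0.53 with Fbln1 left out of the panel. Fst, the activin-binding follistatin, was at 77.7 CPM in EC-Cx43-KO and 48.0 CPM in control (0.70), and at -0.036 with the rule applied after thinning. Bmp2 was at 7.01 CPM in EC-Cx43-KO and 23.2 CPM in control (-1.72), on 13 and 42 UMIs (-0.48 with the rule applied after thinning), and Bmp4 at 66.4 and 97.0 CPM (-0.55). In the alternative nearest to no difference, Bmp2 was at -0.22 and Smad7 at 0.17. Of 16 Wnt genes 1 was called higher and 0 lower, with a median of -0.06. The 84 ribosomal genes had a median log2 ratio of 0.14 with 0 called, and the 91 respiratory chain genes had 0.20 with 5 called higher and 2 lower.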

How the data were processed

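The authors deposited UMI counts for each gene and barcode, made with Cell Ranger 8.0.1 per the submitters' processing notes, which also name STAR and the mm10 build. The files list 32285 genes. Of the barcodes, 255 EC-Cx43-KO and 224 control ones had too few genes, and 348 and 335 exceeded the mitochondrial limit. Doublets were removed only in an alternative. The members, gene lists, panels and the Xist split were chosen with earlier results of these data known. For each class and library the counts were added up and scaled to CPM; a gene with under 3 UMIs in a library took 3 there. Ratio intervals are exact conditional binomial ones. Genes with at least 20 UMIs were measured, and called higher or lower past a log2 ratio of 0.58. Named genes were the 12 highest and 12 lowest by interval end between libraries, and the 15 highest and 10 lowest against other fibroblasts, with at least 100 UMIs, detection in 5% of cells and a level at or above that of leukocytes, plus the panel, gate and list genes; mitochondrial, ribosomal, haemoglobin, Xist and Y-linked genes and unnamed models were left out. A few genes that this rule or the lists hold are not reported here. The genes given by list beyond the 4 with the largest ratio or highest level were chosen after their values were seen. Subclusters came from 1500 variable genes, 20 principal components, 15 neighbours and Leiden resolution 0.8. Positions come from GENCODE annotation of GRCm38. The ratio code was checked on simulated counts. Tools were scanpy 1.11.5, igraph 0.11.9, scikit-learn 1.9.0, SciPy 1.17.1, NumPy 2.4.6, matplotlib 3.10.9 and pandas 2.3.3 under Python 3.11.15.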

Additional observations from a re-analysis of the deposited data

Results flagged for a closer look

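The interferon genes had a median log2 ratio of EC-Cx43-KO over control of 2.56 in matrix-type cells with Xist and no Y-linked UMI, and of -0.64 in those with Y-linked and no Xist UMI. These medians differ in sign between the 2 kinds of cells. The difference was not tested, as each kind comes from 1 library per group.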

How the results depend on the processing

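No paired analysis was possible because each group has 1 library. Over the alternatives to the filters, the rule, the scaling and free RNA, the interferon genes called higher numbered 19 to 27, except in cells with Y-linked and no Xist UMI, where 1 was, and without subcluster 5, where 9 were, as it holds most of the interferon UMIs of EC-Cx43-KO; the cause of the first was not tested. With genes of at least 100 UMIs, 161 were called higher and 169 lower in EC-Cx43-KO and 459 higher than in other fibroblasts; with genes of at least 1 UMI, which tests more genes, these were 1355, 1505 and 5059. The mean of single-cell CPM called 1518 lower. Reversed log2 ratios were, with the rule applied after thinning to 2000 UMIs, Csmd1 -0.20, Cxcl2 -0.31, Fst -0.036, Has2 -1.05 and Procr -0.75; without Smoc2 in the panel, Cxcl5 -0.13, Has2 -0.13 and Prg4 0.11; without Fbln1, Cxcl5 -0.28, Fst -0.15 and Procr -0.47; as the mean of single-cell CPM, Cxcl5 -0.86 and Fst -0.038; and without subclusters 3 and 6, Cxcl5 -2.87 and Fst -0.027. Without Smoc2 in the panel, Cxcl5 and Has2 had the same value. Equal UMIs of a gene in both libraries would give such a value through the scaling alone, so neither need be an opposite direction. The cause was not tested. Depth limits calls for genes near 20 UMIs.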
